A study of Saccharomyces cerevisiae with 6 samples.

Results

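RNA polymerases I, II and III (Pol I, Pol II and Pol III) were followed through the mRNAs of 38 genes, out of 5028 genes in the filtered expression table of this yeast series. The genes were listed by name, and no measured value enters the rule for membership. The list was, however, chosen with earlier results of these data known. They comprised 31 polymerase subunits and 7 initiation factors of Pol I. Of the subunits, 7 belong to Pol I alone, 7 to Pol II alone and 10 to Pol III alone, while 2 are shared by Pol I and Pol III and 5 by all 3 enzymes. All 38 genes passed the filter on low counts and were among the 5011 tested.

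The series compared Saccharomyces cerevisiae strain BY4741 in 2 conditions, with 3 libraries in each. BY4741 is a haploid laboratory strain of mating type a that lacks HIS3, LEU2, MET17 and URA3 function, and all libraries carried the genotype label WT. In the Sucrose condition, cultures growing at 30 °C in 2% sucrose were pelleted directly at an optical density of 0.45. In the NoSucrose condition, sucrose-grown cells were caught on a filter, moved to medium with 2% glycerol and 2% ethanol in place of sucrose, and collected after 16 min. Filtration and transfer were carried out only in NoSucrose, so their effect and that of the carbon source cannot be told apart. Poly(A) RNA was sequenced, and the summed estimated count was 25106494 to 33651822 per library. LEU2, MET17 and URA3 had 0 counts in all libraries. HIS3, whose deletion in this strain is partial, was counted, and the mating type a genes MFA1, MFA2, STE2 and BAR1 were expressed while the alpha pheromone gene MF(ALPHA)1 reached at most 18 counts and MF(ALPHA)2 at most 5. STE3, the pheromone receptor gene of alpha cells, was counted at a low level, with means of 7.37 CPM in Sucrose and 8.09 CPM in NoSucrose.

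Pol I makes the precursor of the large ribosomal RNAs, Pol II makes mRNAs, and Pol III makes tRNAs, 5S ribosomal RNA and other small RNAs. The enzymes share a core of catalytic and assembly subunits and add a stalk that contacts initiation factors, with Pol I and Pol III carrying further subunits related to general factors of Pol II. In yeast, transcription by Pol I and Pol III takes a large share of nuclear RNA synthesis during rapid growth and is known to be reduced when nutrients are withdrawn. Many genes for ribosome production and for these polymerases are preceded by the PAC and RRPE sequence motifs, bound by the repressors Dot6 and Tod6 and by the Stb3 protein respectively.

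After sucrose withdrawal, mRNAs for Pol I, Pol III and the shared subunits fell together, while those for the subunits particular to Pol II fell less or did not pass the test. "Fell" and "rose" are used for an adjusted p below 0.05 in edgeR's quasi-likelihood test with Benjamini-Hochberg adjustment over all 5011 genes, and "called" where the fold change also exceeded 2. Of the 38 genes, 13 were called lower, against 6.03% of all tested genes, and 0 were called higher, against 12.7% (DESeq2 also called 0 higher, and 2 were higher at an unadjusted p below 0.05). At any fold, 32 of the 38 fell against 39.8% of all genes, 2 rose against 42.2%, and 4 did not pass. Levels are given as CPM, counts scaled to a fixed library total after TMM normalization. The median log2 fold change was -0.91 over the 38 genes and 0.03 over all tested genes. These are relative levels of poly(A) RNA in whole cultures, and a change in fewer cells cannot be told apart from a smaller change in every cell.

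Among the 24 subunits of Pol I, Pol III or both, including those common to all 3 enzymes, all 24 fell and 11 were called, with log2 fold changes from -1.93 to -0.78 and a median of -0.99. In each of these 24 genes every NoSucrose library lay below every Sucrose library, a separation seen in that direction for 41.1% of all tested genes. Of the 7 subunits found only in Pol II, 4 fell, against 39.8% of all tested genes, and 3 did not pass. Of these 7, 0 were called lower, against 6.03% of all tested genes, so this count does not set them apart (4 at an unadjusted p below 0.05 in edgeR, and 0 called by DESeq2). The plot of levels by library shows that the Sucrose and NoSucrose points stand apart in every row of the Pol I and Pol III subunits and overlap in 3 rows of Pol II.

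**Figure D1:**
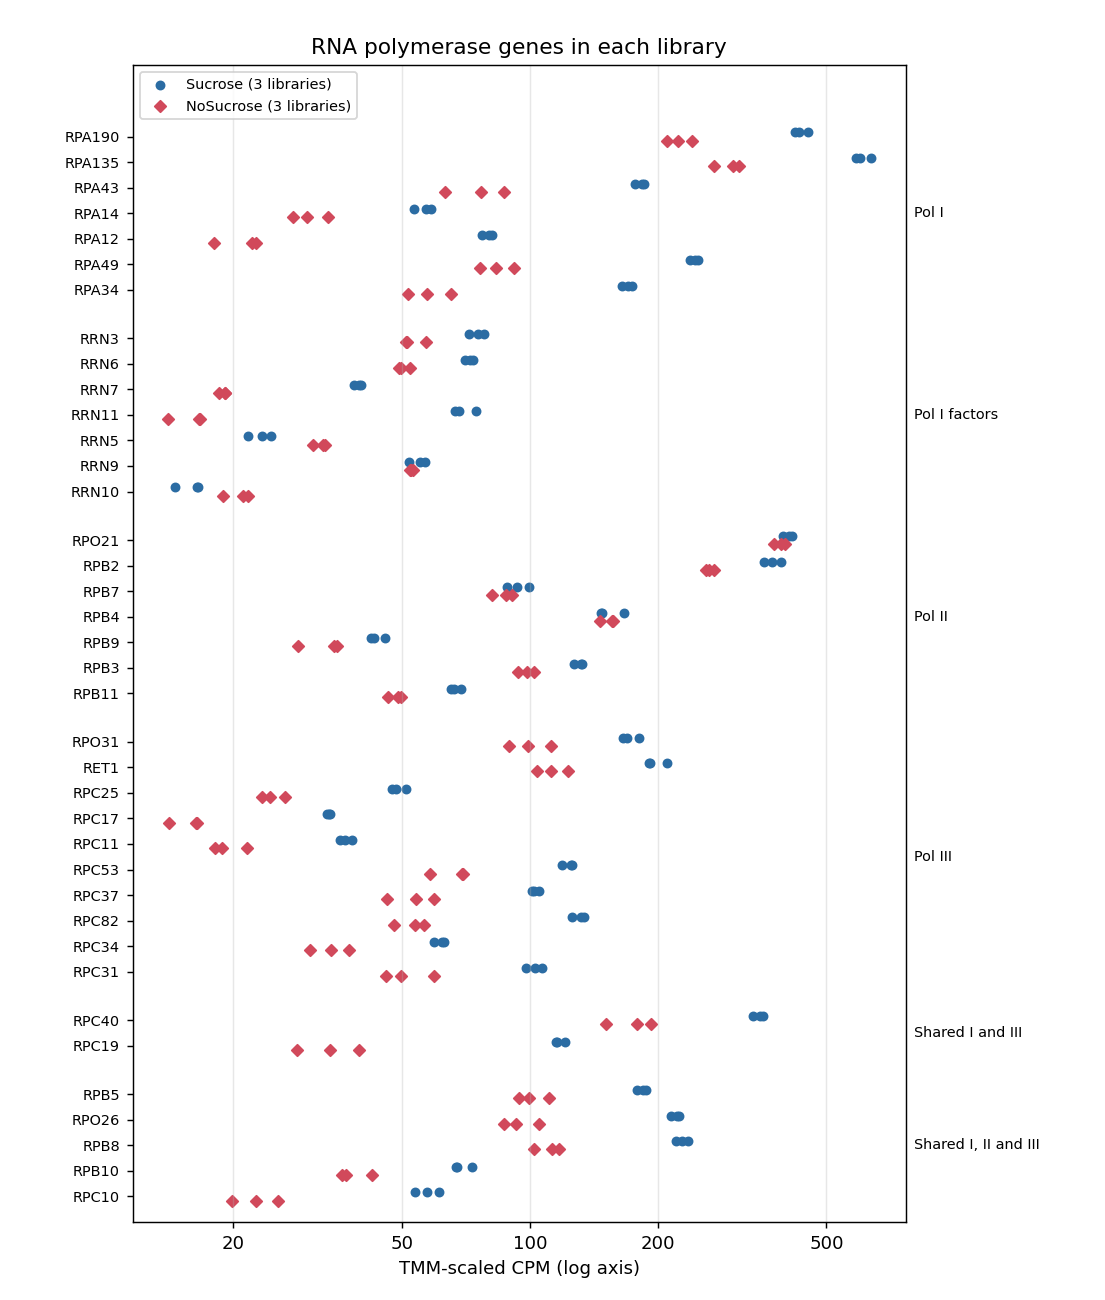
Level of the 38 polymerase genes in each library, as TMM-scaled CPM on a log axis, with Sucrose as blue circles and NoSucrose as red diamonds (3 libraries each) and genes grouped by enzyme. All 24 subunits of Pol I, Pol III or both have lower values in all 3 NoSucrose libraries, while RPO21, RPB7, RPB4 and the factor gene RRN9 overlap.

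The upstream sequences of the same genes were also examined. The 300 bases before each start codon were taken from the RefSeq R64 genome and searched on both strands for the PAC core GATGAG and the RRPE core AAAATTTT. The PAC core was found before 16 of the 19 subunits of Pol I, Pol III or both that Pol II lacks (84.2%) and before 0 of the 12 subunits of Pol II, against 19.1% of 6001 windows over the genome. Those 12 include the 5 subunits common to all 3 enzymes, all of which fell. Over the 24 subunits of Pol I, Pol III or both, common ones included, 16 had a PAC core (66.7%). Any link between the core and the change was not tested. RPA12, RPC17 and RPC11 were the 3 without a match. Of the 7 Pol I factors, 4 had a PAC core (57.1%), namely RRN3, RRN6, RRN11 and RRN10. Of these RRN10 rose, while RRN7, which was called lower, had no match. The matches of the 38 genes lay 54 to 292 bases before the start codon. A window of 300 bases can reach into the upstream region of a divergent neighbour, so some matches lie nearer to that neighbour. It can also reach into the neighbour itself, as before RPO26, which lies 234 bases from PZF1. A match is a description of letters and not of a bound site, and its absence says nothing about a factor.

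Stretches of 30 bases around a PAC core are given for 8 of the genes with a match, as examples from Pol I, its factors, Pol III and the pair shared by Pol I and Pol III. They are written 5′ to 3′ on the strand of the gene, with the core in capitals, which reads CTCATC where the core lies on the opposite strand. RPA190 is shown at chrXV:960808-960837 on the plus strand, RPA135 at chrXVI:581283-581312 on the minus strand, RPA49 at chrXIV:182721-182750 on the minus strand and RPA34 at chrX:140315-140344 on the plus strand. RRN11 is shown at chrXIII:191929-191958, RPC82 at chrXVI:919146-919175 and RPC40 at chrXVI:746901-746930, all on the minus strand, and RPC19 at chrXIV:412632-412661 on the plus strand.
RPA190: ttcaaatctcatCTCATCtcttaaaaaggt
RPA135: ttagagactcatCTCATCtcttaattattc
RPA49: attttttattgcGATGAGctgaaattttcc
RPA34: aaaaattttatcGATGAGcattgaatagct
RRN11: atctcatctcatCTCATCtcagatgatata
RPC82: atttttcaaaagCTCATCgcattgaaggaa
RPC40: aaaaattattgcGATGAGttgaaagaaaaa
RPC19: atattcacctgcGATGAGctggaaaaaaaa

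The longer form GCGATGAG, which contains the PAC core, stood before RPA49, RPC25, RPC37, RPC82, RPC31, RPC40 and RPC19, that is 7 of the 38 genes, against 4.05% of all windows. In the stretches of RPA49, RPC40 and RPC19 it can be read on the gene's own strand, and in that of RPC82 on the other strand. The longer form of RPC37 lay 257 bases before its start codon, in a region of 397 bases shared with DBP7. That of RPC25 lay 187 bases before its start codon, in a region of 299 bases shared with LTV1. RRN11 had 3 core matches in its window, as did RPC53. Those of RPC53 lay 235 to 250 bases before its start codon, in a region of 324 bases shared with SAS10. The RRPE core was found before 12 of the 19 Pol I and Pol III subunits and all 12 also had a PAC core, while 4 of the 12 Pol II subunits had an RRPE core, against 9.42% of all windows. Over the whole table, 947 tested genes had a PAC core and 18.3% of them were called lower and 7.5% higher, beside 6.03% and 12.7% of all tested genes. For the longer PAC form, 38.8% of 227 genes were called lower and 2.2% higher, and for the RRPE core 25.3% of 517 genes were called lower and 4.84% higher. The plot of motif positions shows the rows empty of PAC in Pol II and in the common subunits.

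**Figure D2:**
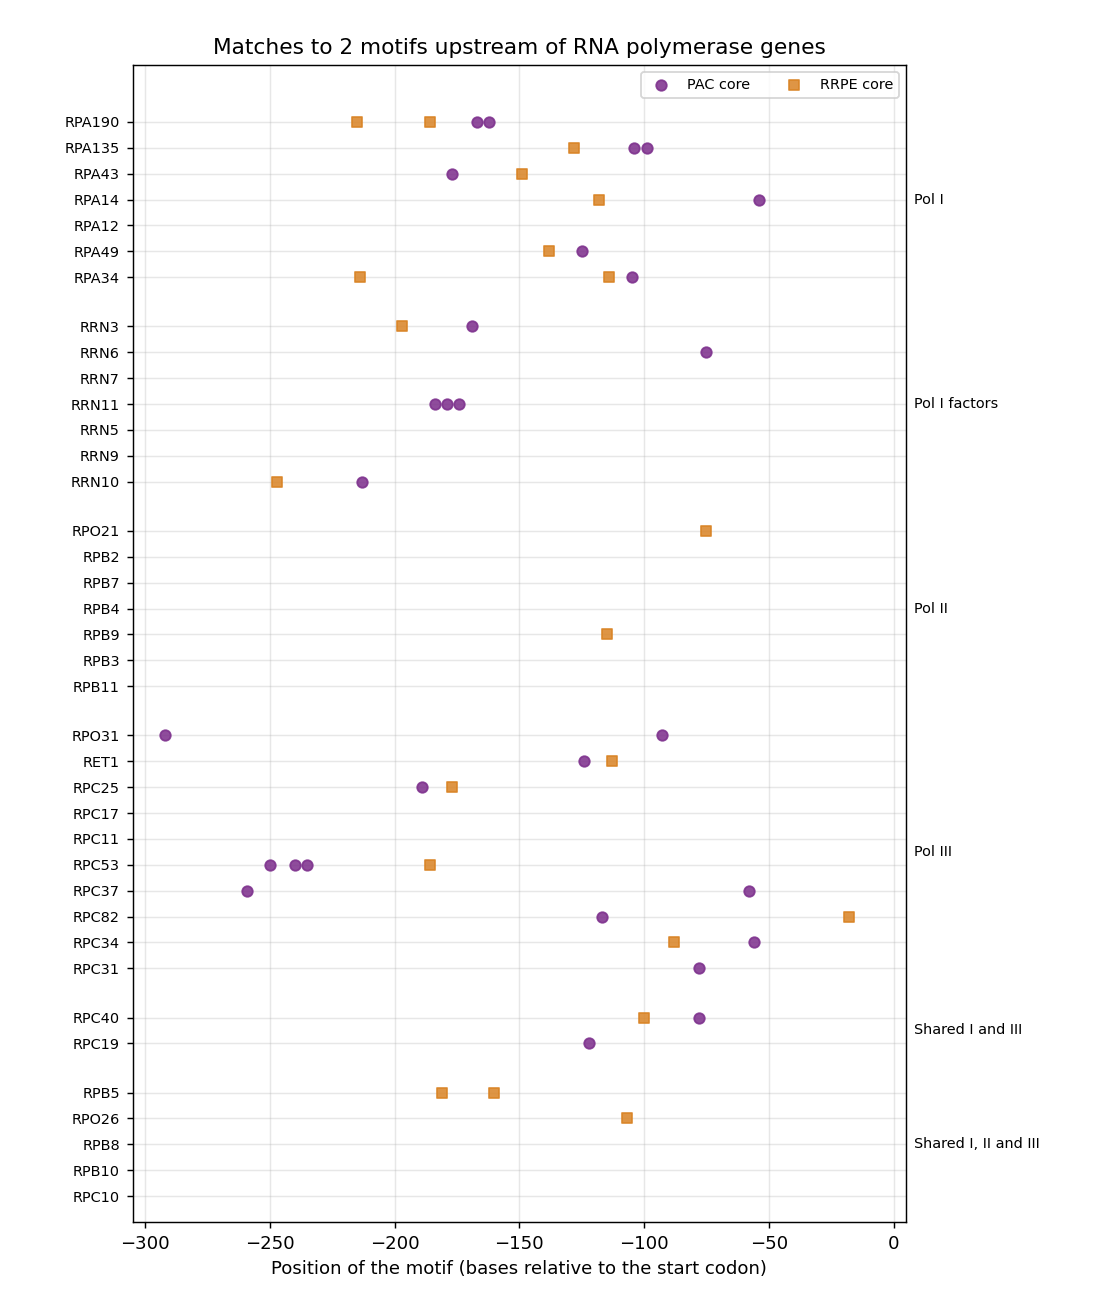
Positions of PAC core (purple circles) and RRPE core (orange squares) matches in the 300 bases before each start codon, with distance in bases from the start codon on the x axis and 1 row per gene. PAC matches stand in 16 of 19 subunits found in Pol I or Pol III but not Pol II, and in 0 of the 12 subunits of Pol II.

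All 7 subunits found only in Pol I fell, and 5 were called. RPA190 encodes the largest catalytic subunit (YOR341W, chrXV:960987-965981, plus strand, a single coding exon). It stood at 453, 431 and 421 CPM in Sucrose and at 211, 224 and 241 CPM in NoSucrose. Every NoSucrose library was below every Sucrose library, as for 41.1% of all tested genes. The log2 fold change of -0.95 (SE 0.06, edgeR adjusted p = 3.74e-06) was just short of the 2-fold threshold. RPA135 encodes the other large subunit, with which RPA190 forms the active centre (YPR010C, chrXVI:577585-581196, minus strand). Its level was 637, 601 and 588 CPM in Sucrose against 272, 301 and 311 CPM in NoSucrose, a log2 fold change of -1.05 (SE 0.06, edgeR adjusted p = 2.66e-06).

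The largest change in a polymerase subunit was in RPA12, whose product helps Pol I to cleave its own transcript and to terminate (YJR063W, chrX:555195-555572, plus strand). Its level was 81.2, 77.0 and 80.3 CPM in Sucrose and 18, 22.6 and 22.1 CPM in NoSucrose. The mean therefore went from 79.5 ± 2.19 CPM to 20.9 ± 2.55 CPM (SD, n = 3 each), 3.8-fold lower, with a log2 fold change of -1.93 (SE 0.08, edgeR adjusted p = 4.83e-07). RPA12 ranked 11 from the lowest of all 5011 genes, and its upstream window held neither motif core.

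RPA49 and RPA34 encode a pair of subunits related to the Pol II factor TFIIF that sits on the side of the enzyme. RPA49 stood at 245, 239 and 249 CPM in Sucrose and 76.4, 83.4 and 91.5 CPM in NoSucrose. RPA34 stood at 170, 165 and 174 CPM in Sucrose and 51.7, 57.3 and 65.1 CPM in NoSucrose. The partners changed by nearly the same amount, with log2 fold changes of -1.54 (SE 0.07) and -1.55 (SE 0.08), at ranks 54 and 51 from the lowest. Their sequences above differ in the longer PAC form, which only RPA49 carries of the pair.

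The Pol I stalk is built from the products of RPA43 and RPA14, and RPA43 is the subunit to which the factor Rrn3 binds. RPA43 fell from 177, 186 and 184 CPM to 63.2, 76.6 and 86.9 CPM, with a log2 fold change of -1.27 (SE 0.10). RPA14 fell from 58.4, 53.2 and 56.8 CPM to 27.6, 29.8 and 33.5 CPM, with a log2 fold change of -0.89 (SE 0.08) that was not called. The conditions did not overlap for either, as for 84.8% of all tested genes. RPA14 overlaps the annotated frame YDR157W by 8 bases on the same strand, and reads there could be assigned to either.

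The initiation factors of Pol I did not move together: of 7 genes, 4 fell, 2 rose and 1 did not pass, with a median log2 fold change of -0.50. Over all tested genes, 39.8% fell and 42.2% rose. RRN11, a subunit of the core factor that binds the ribosomal DNA promoter, had the largest change of all 38 genes (YML043C, chrXIII:190244-191767, minus strand). It stood at 68.2, 66.6 and 74.8 CPM in Sucrose and at 14, 16.7 and 16.6 CPM in NoSucrose. This was 4.42-fold lower, a log2 fold change of -2.14 (SE 0.08, edgeR adjusted p = 2.76e-07), at rank 5 from the lowest of all tested genes.

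The partners of RRN11 in the core factor changed less. RRN7 fell from 39.9, 39.6 and 38.5 CPM to 19.1, 19.1 and 18.5 CPM, and its log2 fold change of -1.06 (SE 0.05) was called. RRN6 fell from 72.2, 70.2 and 73.6 CPM to 49.8, 52.2 and 49.2 CPM, with a log2 fold change of -0.51 (SE 0.04). Within this complex of 3 genes the mRNAs thus dropped by unequal amounts. The libraries of the conditions did not overlap for any of the 3, as for 84.8% of all tested genes. RRN3, which joins Pol I to the promoter-bound factors, fell by 0.50 on the log2 scale (SE 0.06), from 71.9 to 77.9 CPM down to 51.1 to 57.0 CPM.

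The upstream activating factor, which binds further from the start site, is formed in part by the products of RRN5, RRN9 and RRN10. RRN5 rose from 24.5, 21.7 and 23.4 CPM to 32.5, 32.8 and 30.8 CPM, a log2 fold change of 0.47 (SE 0.06, edgeR adjusted p = 0.000199). RRN10, the least abundant of the 38 genes in Sucrose but not in NoSucrose, rose from 14.6, 16.4 and 16.5 CPM to 21.6, 18.9 and 21.1 CPM, a log2 fold change of 0.37 (SE 0.08, edgeR adjusted p = 0.00326). For both, every NoSucrose library was above every Sucrose library. Counting both directions, the conditions did not overlap for 84.8% of all tested genes. RRN9 stood at 56.7, 51.8 and 55.1 CPM in Sucrose and 53.0, 52.5 and 52.1 CPM in NoSucrose, and these values overlap (log2 fold change -0.05, SE 0.04, edgeR adjusted p = 0.285).

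In Pol II, whose specific subunits had a median log2 fold change of -0.41, the largest subunit and the second largest differed. RPO21 encodes the largest subunit, which carries the C-terminal repeat domain, and stood at 416, 409 and 396 CPM in Sucrose and 390, 399 and 377 CPM in NoSucrose. These values overlap, with a log2 fold change of -0.07 (SE 0.05, edgeR adjusted p = 0.221). RPB2, its catalytic partner, fell from 391, 372 and 357 CPM to 271, 260 and 265 CPM, and its log2 fold change of -0.49 (SE 0.05) was the lowest of the Pol II group.

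The stalk of Pol II, RPB4 with RPB7, takes part in initiation and in mRNA export and decay. RPB4 was at 167, 148 and 147 CPM in Sucrose and 146, 157 and 156 CPM in NoSucrose, with a log2 fold change of -0.01 (SE 0.06). RPB7 was at 99.4, 88.5 and 93.4 CPM in Sucrose and 81.4, 87.9 and 90.6 CPM in NoSucrose, with a log2 fold change of -0.11 (SE 0.06). The edgeR adjusted p was 0.917 and 0.105, and the conditions overlapped in both. With library size as the only scaling, RPO21, RPB4 and RPB7 (and RRN9) had log2 fold changes of 0 or above, so their direction is not settled.

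The assembly pair RPB3 and RPB11 and the accuracy subunit RPB9 fell by similar amounts. RPB3 went from 132, 127 and 133 CPM to 93.9, 98.7 and 102 CPM (log2 fold change -0.41, SE 0.04). RPB11 went from 65.0, 66.3 and 68.9 CPM to 46.3, 48.8 and 49.6 CPM (-0.47, SE 0.04). RPB9 went from 43.0, 42.1 and 45.5 CPM to 28.4, 35.1 and 34.6 CPM (-0.41, SE 0.08). None of these 3 genes overlapped between conditions, as for 84.8% of all tested genes. None was called, where 6.03% of all tested genes were called lower.

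All 10 subunits particular to Pol III fell, with log2 fold changes from -1.31 to -0.78, and 2 were called. Since several lie close to the 2-fold threshold, the count called was 4 with DESeq2, 1 with library size as the only scaling, 4 without Sucrose replicate 1 and 5 without NoSucrose replicate 3. The catalytic pair changed in parallel. RPO31, the largest subunit, fell from 181, 166 and 169 CPM to 89.2, 99.2 and 112 CPM, a log2 fold change of -0.78 (SE 0.08, edgeR adjusted p = 4.47e-05). RET1, the second largest subunit, fell from 210, 192 and 191 CPM to 104, 112 and 123 CPM, a log2 fold change of -0.81 (SE 0.07, edgeR adjusted p = 1.85e-05). Both remained short of the 2-fold threshold.

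RPC82, RPC34 and RPC31 encode a trimer needed for initiation that Pol I lacks. RPC82 was called, falling from 134, 126 and 132 CPM to 47.7, 53.6 and 56.3 CPM with a log2 fold change of -1.31 (SE 0.06, edgeR adjusted p = 8.36e-07). RPC34 fell from 59.4, 62.6 and 62.0 CPM to 30.3, 34 and 37.5 CPM (log2 fold change -0.85, SE 0.08). RPC31 fell from 97.7, 103 and 107 CPM to 45.8, 49.6 and 59.4 CPM (-0.99, SE 0.09). RPC82 thus had the lowest fold change of the 10 genes.

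The Pol III stalk genes, RPC17 and RPC25, differed little. RPC17 was called, with 33.8, 33.6 and 33.3 CPM in Sucrose and 14.1, 16.3 and 16.4 CPM in NoSucrose (log2 fold change -1.10, SE 0.07, edgeR adjusted p = 2.89e-06). RPC25 fell from 47.3, 48.3 and 51.1 CPM to 23.4, 24.4 and 26.4 CPM (-0.98, SE 0.06). RPC53 and RPC37, the pair related to TFIIF that takes part in termination, had log2 fold changes of -0.91 (SE 0.07) and -0.95 (SE 0.08). RPC53 fell from 119 to 126 CPM in Sucrose to 58.1 to 69.7 CPM in NoSucrose, and RPC37 from 101 to 105 CPM to 46.0 to 59.3 CPM. RPC11, which acts in transcript cleavage and termination, fell from 38, 35.7 and 36.6 CPM to 18.8, 18.1 and 21.5 CPM (-0.91, SE 0.07).

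**Figure D3:**
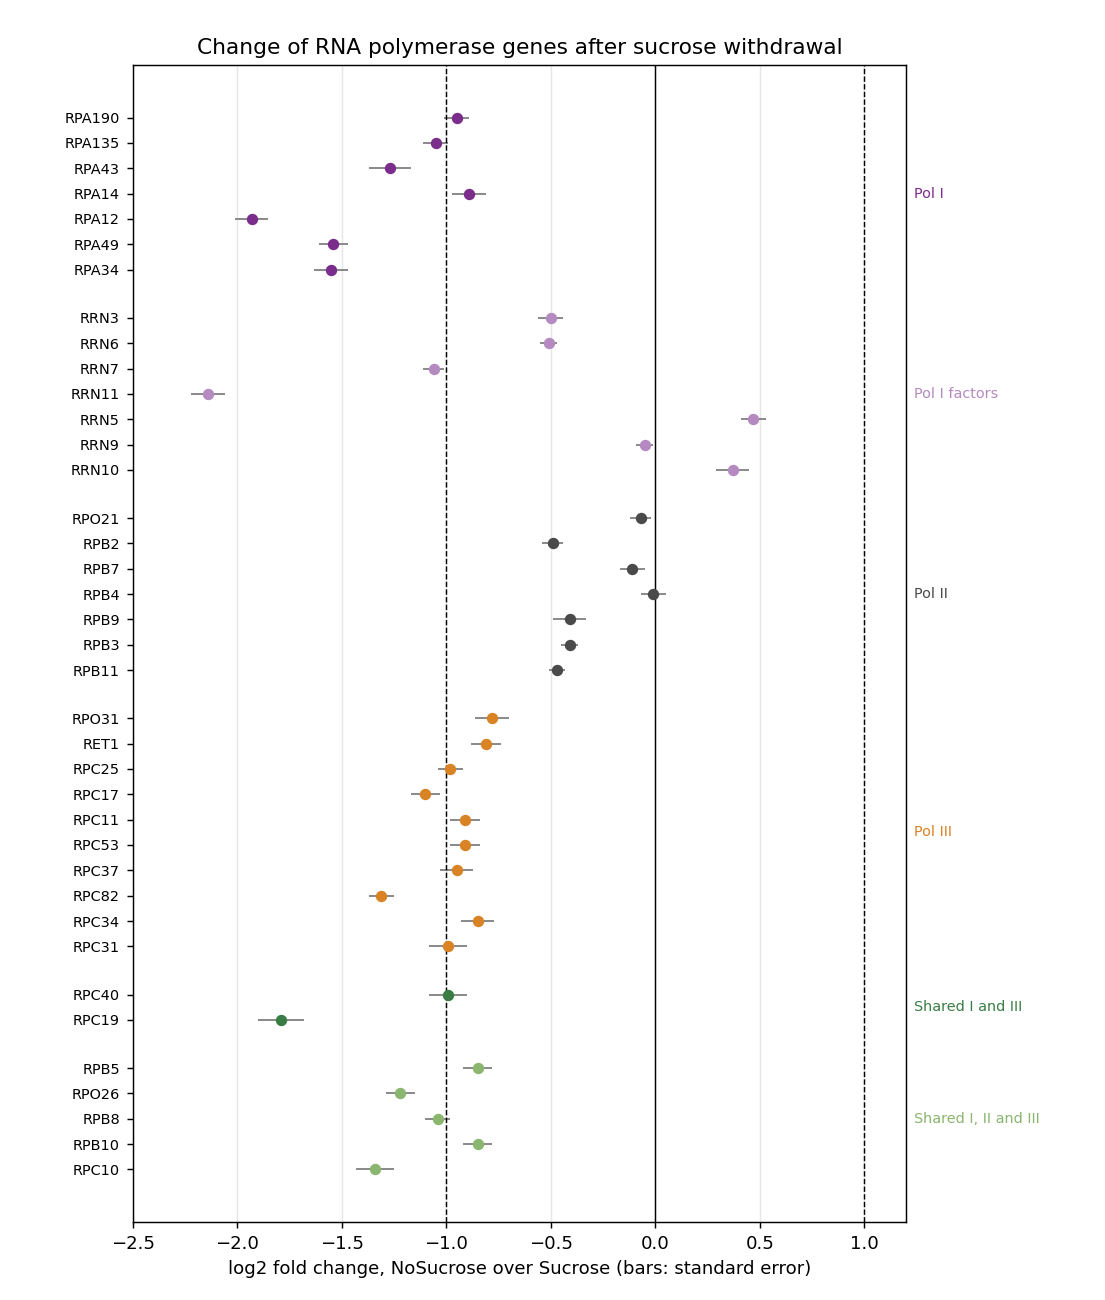
Log2 fold change of each of the 38 genes, NoSucrose over Sucrose, with standard errors as bars and dashed lines at the 2-fold threshold in either direction. RRN11 at -2.14 and RPA12 at -1.93 lie farthest to the left, and RRN5 at 0.47 farthest to the right.

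Shared subunits fell as well. RPC40 and RPC19 form the assembly pair of Pol I and Pol III, in the place of RPB3 and RPB11 in Pol II. RPC19 (YNL113W, chrXIV:412771-413199, plus strand) was called, falling from 116, 115 and 121 CPM to 28.2, 33.7 and 39.5 CPM. It was 3.46-fold lower, a log2 fold change of -1.79 (SE 0.11, edgeR adjusted p = 2.16e-06), at rank 18 from the lowest. RPC40 fell from 354, 335 and 349 CPM to 151, 179 and 193 CPM, a log2 fold change of -0.99 (SE 0.09) just short of the threshold. It was called with DESeq2 and without Sucrose replicate 2 or NoSucrose replicate 2 or 3. The longer PAC form stands before both genes, as shown above.

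Of the 5 subunits common to all 3 enzymes, all 5 fell and 3 were called, with a median log2 fold change of -1.04. RPO26, a small subunit needed for the stability of the enzymes, fell from 215, 222 and 225 CPM to 86.9, 92.7 and 105 CPM (log2 fold change -1.22, SE 0.07). RPC10, also named RPB12 and a zinc-binding assembly subunit, fell from 53.5, 57.3 and 61.2 CPM to 19.8, 22.6 and 25.5 CPM (-1.34, SE 0.09). RPB8 fell from 228, 221 and 236 CPM to 102, 113 and 117 CPM (-1.04, SE 0.06). These 3 called genes changed by more than any subunit particular to Pol II. The jaw subunit RPB5 fell from 185, 179 and 188 CPM to 94.1, 99.6 and 111 CPM (-0.85, SE 0.07). RPB10, another zinc-binding assembly subunit, fell from 67.0, 67.4 and 73.2 CPM to 36.9, 36.0 and 42.5 CPM (-0.85, SE 0.07). The range of the 5 genes, from -1.34 to -0.85, lay wholly below that of the Pol II subunits, from -0.49 to -0.01.

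Summed over its specific subunits, Pol I mRNA went from 1776 ± 40.1 CPM in Sucrose to 788 ± 65.9 CPM in NoSucrose (SD, n = 3 each), 44.4% of the Sucrose level. Pol III went from 1009 ± 20.4 to 529 ± 51.6 CPM, or 52.5%. Pol II went from 1269 ± 39.4 to 1073 ± 15.2 CPM, or 84.6%. The sum over Pol I was thus above that over Pol II in all Sucrose libraries, with a ratio of 1.39, 1.4 and 1.41, and below it in all NoSucrose libraries, with 0.68, 0.73 and 0.79. The Pol III to Pol II ratio went from 0.78, 0.79 and 0.81 to 0.45, 0.49 and 0.54. The common subunits were at 48.5% of their Sucrose level, those shared by Pol I and Pol III at 44.9%, and the Pol I factors at 69.5%.

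Genes at the same place in different enzymes were compared by the log2 ratio of their levels within each library, over 15 pairs. For Pol I against Pol II, all 5 pairs moved towards Pol II. The ratio of RPA190 to RPO21 went from a mean of 0.10 to -0.79 on the log2 scale, a difference of -0.89. That of RPA12 to RPB9 went from 0.87 to -0.64, a difference of -1.51. The differences of RPA43 to RPB7, RPA14 to RPB4 and RPA135 to RPB2 were -1.17, -0.89 and -0.56.

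For Pol III against Pol II the differences in log2 ratio were -0.72 for RPO31 to RPO21, -0.32 for RET1 to RPB2, -0.87 for RPC25 to RPB7, -1.10 for RPC17 to RPB4 and -0.50 for RPC11 to RPB9. All 5 again moved towards Pol II. Between Pol I and Pol III the differences were -0.17 for the largest subunits, -0.24 for the second largest, -0.30 for RPA43 to RPC25 and -1.02 for RPA12 to RPC11. The ratio of RPA14 to RPC17 moved the other way, by 0.21. At 4 of the 5 places the difference between Pol I and Pol III was smaller in size than that between Pol III and Pol II, the exception being RPA12 to RPC11. In all 15 pairs the ratios of the conditions did not overlap. The conditions did not overlap for 84.8% of single genes over the whole table, and the share for ratios of other gene pairs was not computed. Pairs at the same place share genes, so the 15 are not independent. The two-sided exact permutation p was 0.1 for each pair, the smallest that 3 libraries against 3 allow (Benjamini-Hochberg adjusted 0.1 over 15 pairs). The pairs therefore could not pass a threshold of 0.05.

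**Figure D4:**
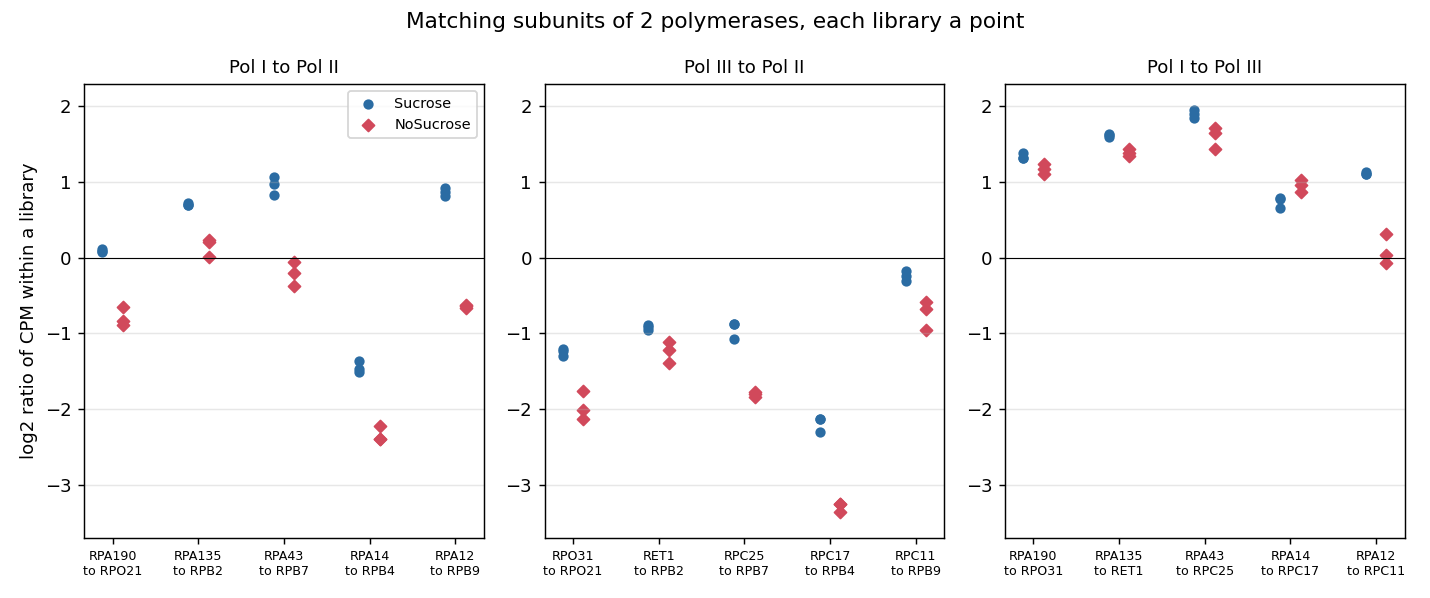
Log2 ratio of CPM between genes at the same place in a pair of polymerases, 1 point per library, with Sucrose as blue circles and NoSucrose as red diamonds and 5 pairs in each panel. The NoSucrose points lie below the Sucrose points in each Pol I to Pol II and Pol III to Pol II pair, and only RPA14 to RPC17 lies above.

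Divided by coding length, the mRNA levels of subunits of the same enzyme were not equal in either condition. Among the 12 subunits of Pol II, level per kilobase differed by 6.62-fold from lowest to highest in Sucrose and by 3.48-fold in NoSucrose. Among the 14 of Pol I the spread was 5.95-fold and 5.57-fold, and among the 17 of Pol III 13.2-fold and 11-fold. RPB8, a subunit common to all 3 enzymes, was the highest in each, at 518 CPM per kilobase in Sucrose and 251 in NoSucrose. RPO31 was the lowest of Pol III at 39.2 and 22.8. Over the subunits particular to an enzyme, the spread in Sucrose and NoSucrose was smaller. It was 2.78-fold and 1.83-fold for Pol I, 2.95-fold and 3.17-fold for Pol II, and 3.44-fold and 3-fold for Pol III.

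The NoSucrose libraries differed among themselves in these genes. Replicate 1 was the lowest of the 3 in 22 of the 24 subunits of Pol I, Pol III or both (91.7%), and replicate 3 the highest in 22 (91.7%), against 38.3% and 38.5% of all tested genes. Among the 7 Pol I factors replicate 1 was the lowest in 2 and replicate 3 the highest in 1. What sets these libraries apart was not tested. Without NoSucrose replicate 1, 11 of the 13 called genes were still called, and RPA135 and RPB8 missed the threshold at -0.99 each. With library size as the only scaling 9 were called, and RPA135, RRN7, RPC17 and RPB8 were not.

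Other genes of the transcription machinery were compared by list. Over all tested genes, 39.8% fell and 42.2% rose, and 6.03% were called lower and 12.7% higher. Of 11 genes for Pol III factors and their regulator, 3 fell and 7 rose, with a median log2 fold change of 0.16. Those that fell include SPT15 (log2 fold change -0.61, SE 0.05), whose product serves all 3 polymerases and not Pol III alone. PZF1, which encodes TFIIIA and binds the 5S rRNA genes, was called lower, falling from 35.5, 38 and 37.3 CPM to 13.9, 13.1 and 14 CPM (log2 fold change -1.43, SE 0.06, edgeR adjusted p = 3.97e-07). MAF1, the repressor of Pol III, rose from 44.9, 49.0 and 51.1 CPM to 94.1, 97.1 and 99.2 CPM, and its log2 fold change of 1.00 (SE 0.05) lies at the threshold. It was called here but had 0.98 with DESeq2 and with DESeq2's scaling in edgeR, 0.95 without Sucrose replicate 1 and 0.99 without NoSucrose replicate 3, where it was not called. The conditions did not overlap for PZF1 or MAF1, as for 84.8% of all tested genes.

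Among 21 general and elongation factors of Pol II, 7 fell, 6 rose and 8 did not pass. Over all tested genes, 39.8% fell and 42.2% rose. The median of the 21 was -0.08, with a range from -0.68 for the elongation factor gene SPT4 to 0.87 for CCL1, the cyclin of TFIIH. Of 25 Mediator genes, 3 fell and 13 rose, against the same shares of all tested genes, with a median of 0.16. SSN8, the cyclin of the Mediator kinase module, was the 1 called, where 12.7% of all tested genes were called higher. Its log2 fold change was 1.19 (SE 0.07), and ROX3 was the lowest at -0.25. Polymerase assembly and import genes were closer to the subunits, with 6 of 8 falling and a median of -0.71. BUD27, which acts in the assembly of all 3 enzymes, was called at -1.33 (SE 0.05), while IWR1, an import factor of Pol II, rose by 0.84 (SE 0.03).

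Of 5 other factors of ribosomal DNA, 3 fell and 1 rose, against 39.8% and 42.2% of all tested genes. They ranged from FOB1, the replication fork barrier protein, at -0.71 to REB1 at 0.23. The mitochondrial RNA polymerase gene RPO41 rose by 0.55 (SE 0.06), and its factor gene MTF1 had a log2 fold change of 0.03 (SE 0.08) that did not pass. The plot of fold changes by gene list sets these lists beside the polymerase subunits.

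**Figure D5:**
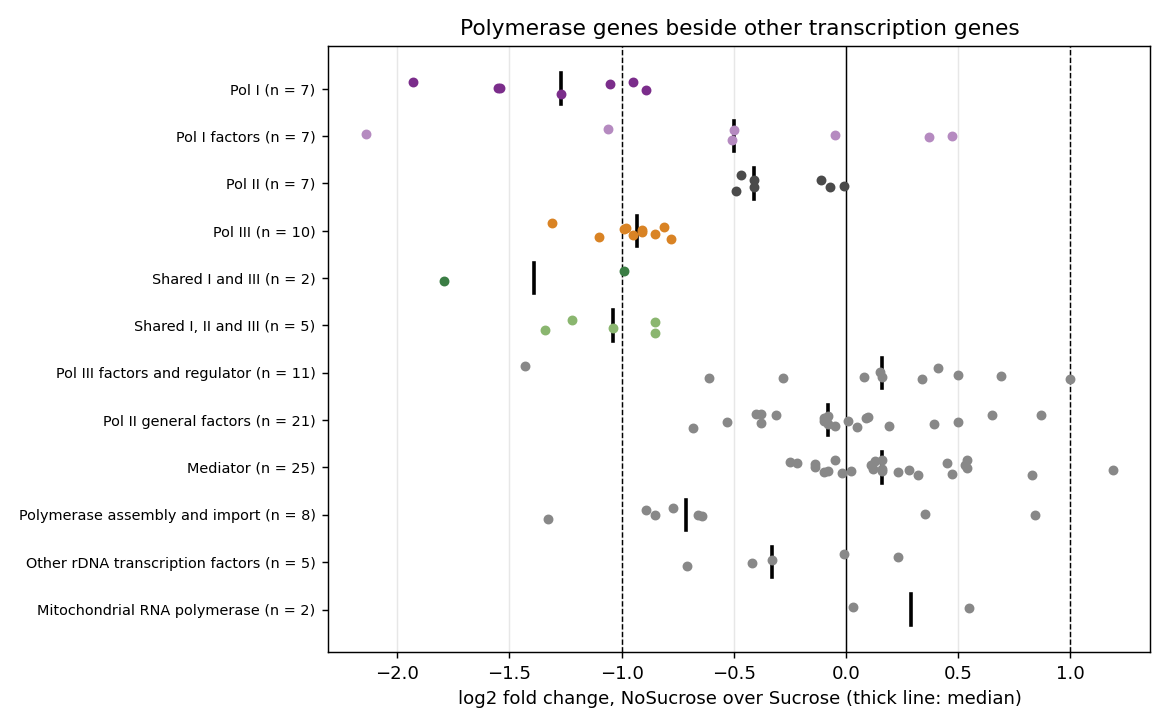
Log2 fold change, NoSucrose over Sucrose, of each gene in the 6 polymerase groups (coloured) and in other lists of transcription genes (grey), with the median of each as a thick line, the 2-fold threshold as dashed lines, and points spread vertically only for visibility. The medians of the Pol I, Pol III and shared groups lie between -1.39 and -0.93. Those of the Pol III factors, Pol II general factors (elongation factors included) and Mediator lie between -0.08 and 0.16. The other medians are -0.71 for assembly and import, -0.50 for the Pol I factors, -0.41 for Pol II, -0.33 for other ribosomal DNA factors and 0.29 for the mitochondrial polymerase.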

How the data were processed

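Poly(A) RNA libraries made with a stranded kit were quantified by the authors with Salmon against the R64 transcriptome, and the deposited values are the resulting estimated counts per transcript, before any normalization. Whether strand was set in counting is not given in the sources used here. The gene names of the filtered table are displaced, so each of its 5028 rows was given the gene of the unfiltered table with the same 6 values in any order, and all 5028 matched exactly 1 gene. The headers of the filtered table were used, because 1999 of 1999 genes in a shortened copy of the study's own count table had the same values under them, within a small tolerance for rounding. Under the unfiltered table's headers, only Sucrose replicate 1 and NoSucrose replicate 3 did.

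Counts were rounded, kept where edgeR's filterByExpr passed them (minimum count 15, minimum total 20), scaled by TMM (factors 0.957 to 1.07) and tested with edgeR 4.0.16 in R 4.3.3 by glmQLFit and glmQLFTest on all 5011 remaining genes, with condition as the only term. A gene was called at a Benjamini-Hochberg adjusted p below 0.05 and a fold change above 2. The SE of a log2 fold change is its size over the square root of F, and the biological coefficient of variation was 0.0708. CPM values were scaled by TMM, and log2 ratios between genes used a prior count of 2 and exact permutation tests (scipy 1.17.1). The methods describe the 3 libraries of a condition as biological triplicates, and counts of every pair differed by more than sampling noise.

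Upstream windows of 300 bases and all coordinates came from RefSeq R64, the assembly the authors used. All 38 members are named. From the other lists the called genes, the extremes and SPT15 are named. The tested neighbours that diverge from a member's upstream region and the neighbour that overlaps one are named too. The members and lists were chosen with earlier results of these data known. Alternatives were other normalizations, DESeq2 1.42.0, other filters and thresholds, a replicate block, leaving out each library, and the unfiltered headers.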

Additional observations from a re-analysis of the deposited data

How the results depend on the processing

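Apart from the unfiltered table's headers, 9 of the 13 called genes were called under every normalization, filter and left-out library (RPA43, RPA12, RPA49, RPA34, RRN11, RPC82, RPC19, RPO26 and RPC10), and the same 32 genes fell at any fold. Under the unfiltered headers, which mix libraries of the conditions, edgeR called 0 of the 38 genes, with 0 lower at an unadjusted p below 0.05. Counts of called genes followed the fold threshold. At any fold there were 32 of all 38 genes, 4 Pol I factors, 4 of Pol II, 10 of Pol III, 2 shared by Pol I and Pol III, and 5 common subunits. At 1.5-fold there were 26 of all 38 (17.8% of all tested genes), 10 of Pol III, 2 shared by Pol I and Pol III, and 5 common. DESeq2 and its size factors in edgeR (RLE) each called 4 of Pol III and 2 shared by Pol I and Pol III. Leaving out 1 library in turn gave 11 to 17 of all 38, 2 to 5 of Pol III and 1 to 2 shared by Pol I and Pol III, with 5 of Pol III without NoSucrose replicate 3 and 4 without Sucrose replicate 1. The 2 shared genes were both called without Sucrose replicate 2 and without NoSucrose replicate 2 or 3.

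With library size as the only scaling, the median of all genes shifted by 0.11, from 0.03 to 0.14. Called lower were then 201 genes of the whole table against 302, 1 Pol I factor and 1 of Pol III. Summed levels moved to 1707 CPM for Pol I, 336 CPM for the Pol I factors, 1220 CPM for Pol II, 970 CPM for Pol III, 445 CPM for the genes shared by Pol I and Pol III and 730 CPM for the common subunits in Sucrose, and to 253 CPM for the Pol I factors and 1117 CPM for Pol II in NoSucrose. The log2 fold changes of RRN9, RPO21, RPB7 and RPB4 became 0.06, 0.05, 0.00 and 0.11. With upper quartile scaling RPB4 had 0.01, and with a library left out it ranged from -0.04 to 0.05 and MTF1 from -0.01 to 0.09. None of these genes passed the test.

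Same-numbered replicates of the conditions did not deviate together (correlations -0.137, -0.002 and 0.041), so they were not treated as pairs. A replicate block called 13 of the 38 genes, all 13 shared with the fit without it, and 299 genes lower over the whole table. Each condition had 3 libraries, and the lowest count of a member in a library was 352 (RRN10).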

Other observations

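Many polymerase genes share an upstream region with a divergent neighbour, and these neighbours changed in both directions or did not pass the test. RPA190 and RPA43 diverge from a region of 804 bases, and both fell. RPO26 and PZF1 lie 234 bases apart, and both were called, at log2 fold changes of -1.22 and -1.43. The helicase gene DBP7, which acts in ribosome assembly and lies 397 bases from RPC37, fell by 1.61 on the log2 scale (SE 0.07, edgeR adjusted p = 4.61e-07). SAS10 and LTV1, ribosome biogenesis genes next to RPC53 and RPC25, fell by 0.86 (SE 0.09) and 0.77 (SE 0.11), and the chaperone gene CNS1 next to RPB5 fell by 1.53 (SE 0.07). NPT1 next to RPB10 fell by 0.56, CPR1 next to RPA14 by 0.23, MNP1 next to RPB9 by 0.21 and RPT5 next to RPO31 by 0.18.

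Other neighbours rose. Next to genes that fell, CAT2, which encodes carnitine acetyltransferase and lies 1020 bases from RRN11, rose by 4.31 (SE 0.17, edgeR adjusted p = 3.37e-07). FMT1 next to RRN6 rose by 1.14 (SE 0.15), NTA1 next to RPA12 by 0.49 (SE 0.04) and PTP2 next to RET1 by 0.25 (SE 0.05). SLS1 rose by 0.45 (SE 0.04) beside RRN5, which rose too. YAK1, a kinase gene 570 bases from RPB4, rose by 2.43 (SE 0.07), and MRP20, a mitochondrial ribosomal protein gene next to RPB7, by 0.97 (SE 0.04), where neither RPB4 nor RPB7 passed the test. QCR2 next to RPC82 had a log2 fold change of -0.03, DBF20 next to RPC40 of -0.12, SIN3 next to RPB11 of -0.04 and SWM2 next to RPC34 of 0.10, and none of them passed the test.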
